A study of Caenorhabditis elegans with 12 samples.

Results

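The comparison described here sets animals that had been starved for 8 days as hatchlings and then fed bacteria for *daf-2* RNA interference against animals starved for 1 day and then fed the empty vector. It uses the 6 libraries that carry those labels, of 12 in the series, and every gene of the deposited table. The animals were *Caenorhabditis elegans*, all N2 (Bristol), a wild type with no transgene or mutation, and each library is RNA of whole animals from a population washed off plates as early adults. The 3 starved *daf-2* RNAi libraries come from larvae held without food in L1 arrest for 8 days, and the 3 control EV libraries from larvae held for 1 day. After arrest, 1000 live animals per condition recovered at 20 °C on HT115 bacteria with the *daf-2* RNAi vector or the empty vector (EV), until eggs appeared. That took about 68 hours after 8 days and about 52 hours after 1 day, so the time in arrest and the time on food cannot be told apart. The series' other 6 libraries are 3 starved EV (8 days, EV) and 3 control *daf-2* RNAi (1 day, *daf-2* RNAi) libraries. The labels call the libraries of a group biological replicates, with letters A, B and C. Both factors differ at once between starved *daf-2* RNAi and control EV animals, so a difference between them cannot be assigned to either from these 6 libraries. The comparison asks what still differs from animals that were neither starved for long nor treated when both factors are changed.

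L1 arrest is the halt in development that a hatchling enters when it finds no food, and it ends when the larva is fed. DAF-2 is the worm's insulin/IGF receptor. It signals through the kinases AGE-1, PDK-1, AKT-1 and AKT-2 to keep the transcription factor DAF-16, a FOXO protein, out of the nucleus, and low receptor activity lets DAF-16 activate genes of stress resistance and metabolism. In well fed larvae the same receptor promotes growth and reproduction, and in hatchlings its activity sets how long starvation can be survived.

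The deposited values are normalised signals on the CPM scale (read counts relative to library size). Whole reads recovered from them totalled 21150912 to 28231720 in the starved *daf-2* RNAi libraries and 21815842 to 25901878 in the control EV libraries. Signal was compared between genes of one name only, since it is not corrected for length. *daf-2* itself (Y55D5A.5) had 706, 289 and 111 CPM in the starved *daf-2* RNAi libraries A, B and C, against 188, 155 and 91.6 CPM in the control EV libraries. The groups overlapped, and no library labelled *daf-2* RNAi lay below the lowest control EV library. The log2 difference was 1.02 ± 0.55 (SE; limma, adjusted p = 0.366). The transcript therefore does not check the RNAi label, and every direction below follows the labels. In a principal component analysis the third component (17.5% of the variance) held these groups apart, with -39.5 to -14.1 in starved *daf-2* RNAi and 16.3 to 29.2 in control EV libraries. On the first component (43.1%) they overlapped, at -9.38 to 17.4 and 3.59 to 19.1. They overlapped on the second (19.8%) too, at -28.05 to 11.09 and -15.83 to 25.55. That component followed the letters, with A lowest and C highest in each group.

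Animals given both changes differed from control EV animals in genes of DAF-16 and low insulin signalling, in cuticle collagens, and in single genes of defence and metabolism. limma on log2(CPM + 1) called 741 of 12830 tested genes at an adjusted p under 0.05, which is 5.78%. Of these 407 were higher (3.17%) and 334 lower (2.6%) in starved *daf-2* RNAi animals, and 254 rose and 126 fell by at least 2-fold on that scale. At least 4-fold, 64 rose and 8 fell. In all 741 the 3 libraries of one group lay above the 3 of the other, which was so for 2730 of all tested genes (21.3%). Leaving out a library moved the count of calls to 460 (starved *daf-2* RNAi C), 389 (control EV B) or 451 (control EV C). Without starved *daf-2* RNAi B it was 901, of which 71.9% were higher, against 54.9% with all libraries. With the replicate letter as a block in the fit, 2236 genes were called (973 higher, 1263 lower). Array weights (a weight per library set by limma) called 799 higher and 1051 lower, and DESeq2 658 and 638. Counts of gene lists under these settings stand beside these totals over 12830 tested genes.

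The remaining 6 libraries form the opposite diagonal of the design and share no library with the comparison above, though the fit shares one estimate of spread. Starved EV against control *daf-2* RNAi animals gave 4725 calls (36.8%), 2852 higher (22.2%) and 1873 lower (14.6%). After quantile normalization 47.9% of the calls in this diagonal were higher, against 60.4% as deposited. The count was 6.38 times that of starved *daf-2* RNAi against control EV, and between 2.69 and 11 times under the alternative settings run. The median absolute log2 difference over all tested genes was 0.18 for starved *daf-2* RNAi against control EV and 0.38 for starved EV against control *daf-2* RNAi. For 10723 genes (83.6%) the 95% interval of the difference between starved *daf-2* RNAi and control EV lay within 1 log2 unit of 0, and for 9091 (70.9%) in the opposite diagonal.

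**Figure D1:**
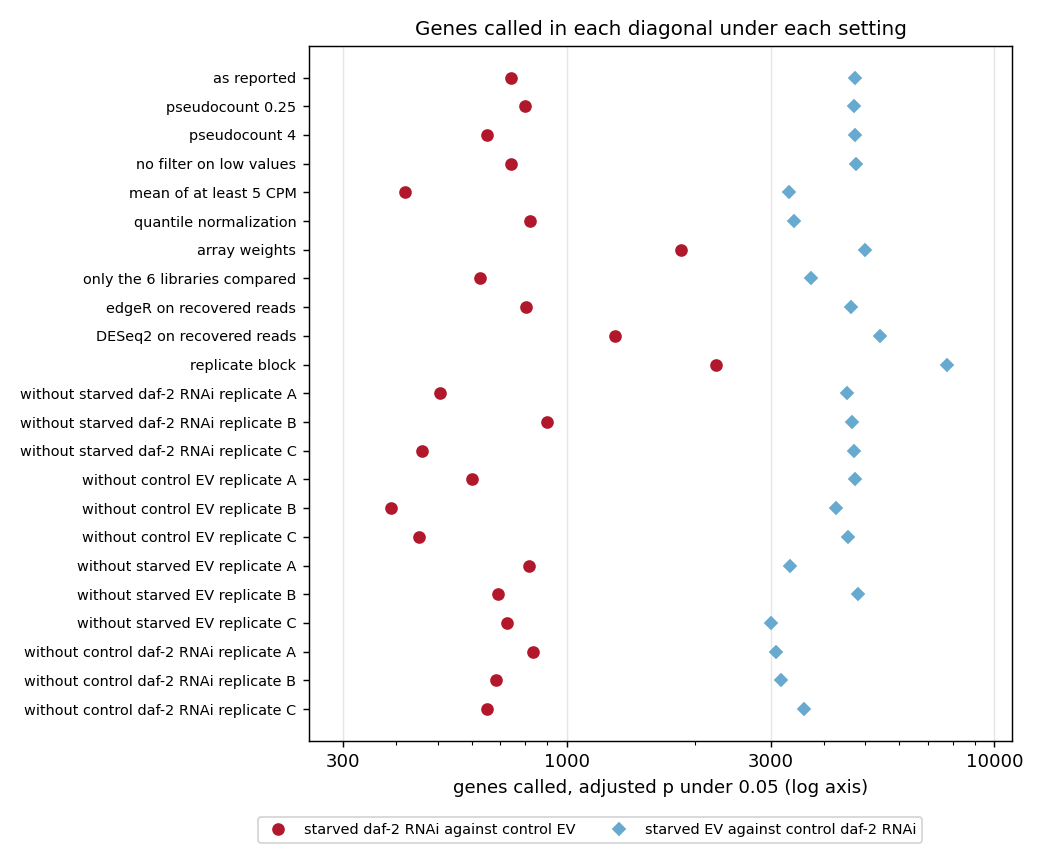
Genes called at an adjusted p under 0.05 (x axis, log scale) in starved daf-2 RNAi against control EV (red circles) and in starved EV against control daf-2 RNAi (blue diamonds), one row for each way of processing. The first stays between 389 and 2236 calls and the second between 2999 and 7769.

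Genes called in both diagonals fell into those with the same sign and those with opposite signs. A gene whose sign is shared is higher or lower in both 8-day groups of these pairs, and a gene whose signs are opposed is higher or lower in both groups labelled *daf-2* RNAi. Of the 420 such genes, which are 56.7% of the 741 and 8.89% of the 4725, 164 had the same sign (158 higher, 6 lower). The other 256 had opposite signs, 50 higher and 206 lower in starved *daf-2* RNAi animals. A further 321 genes were called in starved *daf-2* RNAi against control EV alone. In a test of whether the effects of arrest length and RNAi label add up on the log2 scale, limma called 0 of 12830 genes (0.0%), with 912 at an unadjusted p under 0.05 and a smallest adjusted p of 0.297. edgeR on the recovered reads called 0 and DESeq2 called 4, and limma with the replicate letter as a block called 63. These counts do not show that the effects add up for any gene.

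**Figure D2:**
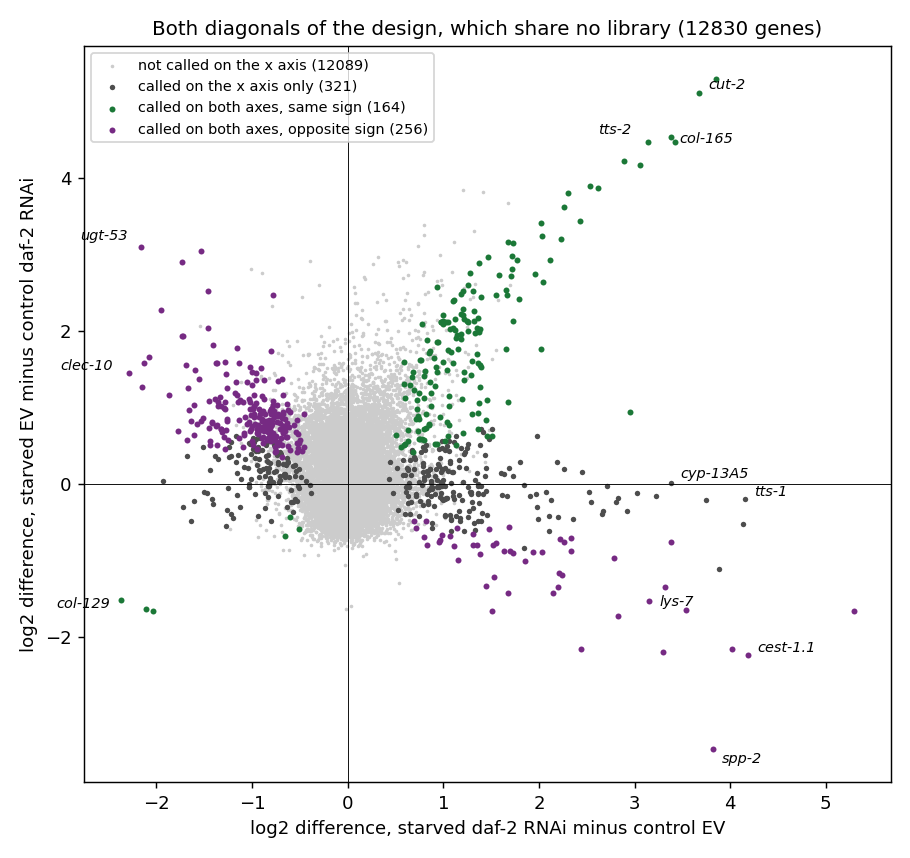
Each point is a tested gene, with its log2 difference between starved daf-2 RNAi and control EV on the x axis and between starved EV and control daf-2 RNAi on the y axis. Genes called on both axes with the same sign (164, green) lie mostly at upper right, and those with opposite signs (256, purple) at upper left and lower right.

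Many of the genes that DAF-16 is known to activate rose. Of a list of 19, 12 rose and 0 fell, with a median log2 difference of 1.15, against 3.17% higher and a median of -0.0008 over all tested genes. In 15 of the 19 every starved *daf-2* RNAi library lay above every control EV library, against 10.2% of all tested genes. In bulk RNA of whole animals, fewer cells of a type and less RNA per cell cannot be told apart. *tts-1* (F09E10.11, X, 1504131 to 1504841 in the WBcel235 annotation), a long non-coding RNA abundant in animals with low insulin signalling, had 169, 187 and 366 CPM in starved *daf-2* RNAi libraries, against 14.7, 11 and 10.0 CPM in control EV libraries. All starved *daf-2* RNAi libraries lay far above all control EV libraries, by 4.16 ± 0.28 (log2, SE; limma, adjusted p = 4.61e-06). Its mean was 40.2 CPM in starved EV and 46.6 CPM in control *daf-2* RNAi animals, so both groups with a single change lay between. *dod-3* (C24B9.9, V, 2730622 to 2731098), named for acting downstream of DAF-16, had 31.1, 31.2 and 38.2 CPM, against 1.49, 1.12 and 0.42 CPM in control EV libraries. It rose by 4.14 ± 0.26 (adjusted p = 2.60e-06), and the single-change groups again lay between, at 6.95 CPM in starved EV and 10.5 CPM in control *daf-2* RNAi animals.

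The metallothionein gene *mtl-1* (K11G9.6), whose product binds metal, had 10.5, 8.96 and 37.4 CPM in starved *daf-2* RNAi libraries, against 0.149, 0.0414 and 0.14 CPM in control EV libraries. The control EV values are 3, 1 and 3 reads. *mtl-1* rose by 3.88 ± 0.51 (limma, adjusted p = 0.000577), and starved *daf-2* RNAi library C stood above libraries A and B. *nnt-1* (C15H9.1), for a mitochondrial nicotinamide nucleotide transhydrogenase, rose by 3.54 ± 0.24 (adjusted p = 4.61e-06), with 27 bases of its exons shared with C15H9.9. *sod-3* (C08A9.1, X, 17092753 to 17094306), a mitochondrial manganese superoxide dismutase, had 11.5, 9.87 and 14.8 CPM, against 2.23, 1.49 and 2.09 CPM in control EV libraries. Its groups did not overlap, and it rose by 2.14 ± 0.20 (adjusted p = 4.58e-05); 65 bases of its exons overlap C08A9.3, and the library kit keeps no strand. *sod-3* averaged 3.52 CPM in starved EV and 11 CPM in control *daf-2* RNAi animals, so it was higher in both groups labelled *daf-2* RNAi than in both EV groups.

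Other members of the list that rose were *aakg-4* (1.31), an AMP-activated kinase subunit, *dod-6* (1.18), *asah-1* (1.15), an acid ceramidase, and the catalase genes *ctl-1* (0.86) and *ctl-2* (0.79). *spp-1* (0.84) passed narrowly, at an adjusted p of 0.0496 (limma). The small heat shock genes of the list went without a call, *hsp-12.3* at -0.88 (adjusted p = 0.0529), *hsp-16.1* at -0.57 and *hsp-12.6* at 0.40. *hsp-12.3* was called lower, the 1 fall in the list, without starved *daf-2* RNAi B, control EV A or control *daf-2* RNAi A or B, and with quantile normalization, array weights (a weight per library set by limma) or DESeq2. Among all 27 heat shock and chaperone genes tested 0 were called, against 5.78% of all tested genes. Under each of those same settings other than the block 1 was called lower, and quantile normalization also called 1 higher. With the replicate letter as a block in the fit 1 was higher and 2 were lower. Of 10 superoxide dismutase, catalase and peroxiredoxin genes 4 rose, against 3.17% of all tested genes. They were *sod-3* and the neighbouring catalase genes *ctl-1*, *ctl-2* and *ctl-3*, whose reads may not be separable. Only 1 of the 4 rose without starved *daf-2* RNAi A, control EV B or control EV C, and 2 without starved *daf-2* RNAi C, while *sod-3* held under every alternative run. In the opposite diagonal 0 of the 19 DAF-16 activated genes were higher and 4 lower, with a median of -0.24. Of all tested genes 22.2% were higher and 14.6% lower there.

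Some genes that DAF-16 is known to repress fell. Of 7 tested 0 rose and 3 fell, with a median of -0.53, against 2.6% lower over all tested genes, and all 7 differences lay below 0. *dod-24* (C32H11.12), for a CUB-like protein of the intestine, had 7.40, 4.56 and 9.90 CPM in starved *daf-2* RNAi libraries, against 29.4, 32.3 and 37 CPM in control EV libraries. The groups were well apart, and it fell by 2.08 on the log2 scale (SE 0.24; limma, adjusted p = 0.000241). *dod-24* averaged 30.2 CPM in starved EV and 9.12 CPM in control *daf-2* RNAi animals, so its level went with the RNAi label. *dod-23* (-1.41 ± 0.34, adjusted p = 0.0296) and *dod-22* (-0.96 ± 0.26, adjusted p = 0.0462) were called with all libraries. Without starved *daf-2* RNAi A or B or control EV B or C 1 of the 3 was called. In the opposite diagonal 6 of the 7 were higher and 0 lower, with a median of 1.37. The shares of all tested genes there were 22.2% higher and 14.6% lower.

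Of 22 tested genes of the insulin pathway itself, 2 rose and 1 fell, against 3.17% higher and 2.6% lower of all tested genes. The called genes are all kinases that act after the receptor. *akt-2* (F28H6.1), a kinase that phosphorylates DAF-16, had 26.7, 23.4 and 24.8 CPM in starved *daf-2* RNAi libraries, against 9.41, 10.6 and 8.98 CPM in control EV libraries. It rose by 1.29 ± 0.13 (limma, adjusted p = 9.14e-05), and both single-change groups lay between, at 18 CPM in starved EV and 19.2 CPM in control *daf-2* RNAi animals. *pdk-1* (H42K12.1), whose product activates AKT kinases, rose by 0.95 ± 0.18 (adjusted p = 0.00834; 15 bases shared with F21E9.2). *sgk-1* (W10G6.2), a related kinase, had 14.8, 15.6 and 15.8 CPM, against 27, 26.9 and 27.4 CPM in control EV libraries, and fell by 0.78 (SE 0.12; adjusted p = 0.00244). Its values hardly varied within either group. *daf-16* (R13H8.1) had 185, 184 and 157 CPM, against 182, 176 and 132 CPM in control EV libraries, a difference of 0.11 with a 95% interval of -0.25 to 0.47 (adjusted p = 0.81). Of 15 insulin-like peptide genes, which encode candidate ligands of DAF-2, *ins-35* (1.33) and *ins-23* (1.31) rose and *ins-13* (-1.01) fell, against the same shares. All 3 are near or below 2.5 CPM in each library, and *ins-13* was not called without any one of the 6 libraries compared other than starved *daf-2* RNAi B.

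**Figure D3:**
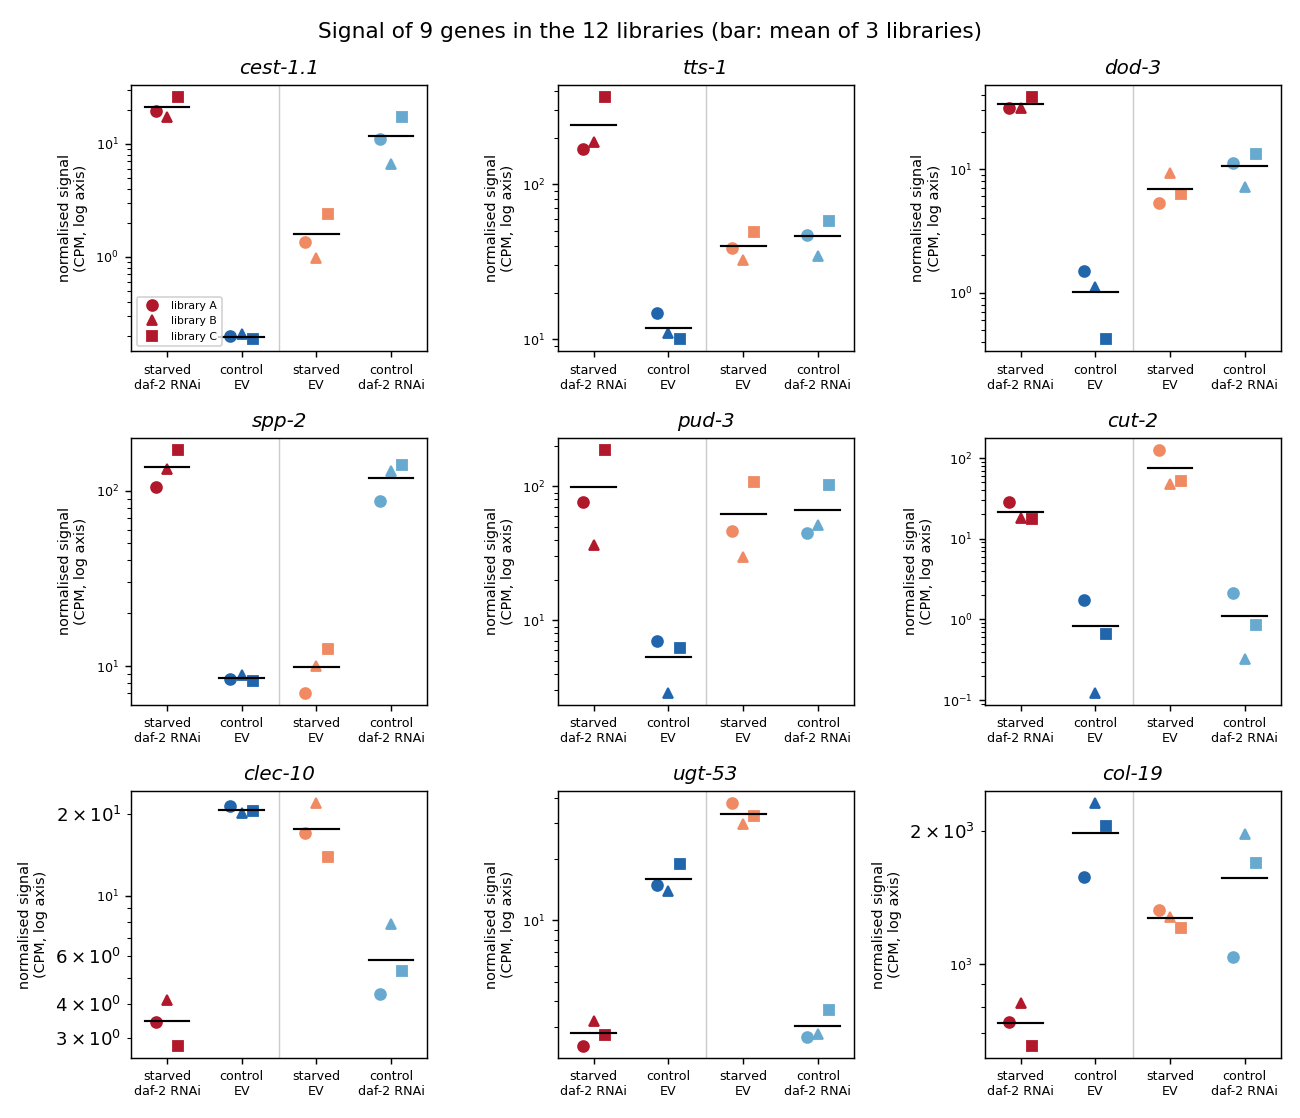
Signal in CPM (y axis, log scale) of 9 genes in each of the 12 libraries, with starved daf-2 RNAi left of control EV and starved EV left of control daf-2 RNAi; marker shapes give the letter and bars the mean of 3 libraries. In tts-1 and dod-3 both single-change groups lie between, in spp-2 and clec-10 the levels follow the RNAi label, and in cut-2 they follow the length of arrest.

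All 6 *pud* genes, found as proteins that accumulate in *daf-2* mutants, rose, with log2 differences of 2.53 to 3.75. They hold this count under every alternative run. *pud-3* (F15E11.15, V, 2324634 to 2325152) had 76.4, 36.6 and 186 CPM in starved *daf-2* RNAi libraries, against 7.04, 2.90 and 6.19 CPM in control EV libraries. Its starved *daf-2* RNAi libraries varied widely among themselves and still lay above all control EV libraries, by 3.75 ± 0.56 (limma, adjusted p = 0.00153). The single-change groups averaged 61.8 CPM (starved EV) and 66.3 CPM (control *daf-2* RNAi). *pud-2.1* and *pud-2.2* rose by 2.66 and 2.67, and *pud-1.1* and *pud-1.2* by 2.54 and 2.53, with the reads of such near copies possibly not separable. In the opposite diagonal 0 of the 6 were called, against 36.8% of all tested genes there.

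The single-factor steps share libraries with this comparison and are set beside it only as values. Calls over all tested genes were 17.7% for starved EV against control EV, 1.39% for control *daf-2* RNAi against control EV, 15.7% between the 8-day groups and 0.701% for starved *daf-2* RNAi against control *daf-2* RNAi. For *tts-1* starved EV exceeded control EV by 1.67 and control *daf-2* RNAi exceeded control EV by 1.87, on the log2 scale. For *pud-3* these steps were 3.16 and 3.37, each nearly as large as the 3.75 of both changes together. For *spp-2* they were 0.16 and 3.62, and for *cut-2* 5.31 and 0.19. The interaction of arrest length and RNAi label had an adjusted p (limma) of 0.722 for *tts-1*, 0.476 for *pud-3*, 0.963 for *spp-2* and 0.546 for *cut-2*.

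Among genes of iron and lipid handling a few rose strongly. *ftn-1* (C54F6.14, V, 7546468 to 7547579), an intestinal ferritin gene, had 15.8, 13.6 and 25.9 CPM in starved *daf-2* RNAi libraries, against 0.69, 1.16 and 0.84 CPM in control EV libraries, and rose by 3.32 ± 0.28 (limma, adjusted p = 2.63e-05). The second ferritin gene, *ftn-2*, moved the other way. It had 123, 146 and 162 CPM, against 222, 273 and 252 CPM in control EV libraries, and fell by 0.79 (SE 0.17; adjusted p = 0.0171), a call lost without starved *daf-2* RNAi A, control EV B or control EV C (adjusted p up to 0.0877). *fat-5* (W06D12.3), a palmitoyl-CoA desaturase, was the 1 called gene of 22 (4.55%) in fatty acid synthesis and desaturation, against 5.78% of all tested genes. It had 130, 120 and 188 CPM, against 24.5, 26.5 and 53 CPM in control EV libraries, and rose by 2.1 ± 0.29 (adjusted p = 0.000806). The related *fat-6* (0.12, adjusted p = 0.901), *fasn-1*, which encodes fatty acid synthase (-0.29, adjusted p = 0.43), and the acetyl-CoA carboxylase gene *pod-2* (-0.18, adjusted p = 0.88) were not called. Array weights called 5 of the 22 lower.

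Of 22 lipase and lipid droplet genes 5 rose and 0 fell, against 3.17% and 2.6% of all tested genes. They are the lysosomal lipase genes *lipl-1* (1.17), *lipl-2* (2.2), *lipl-3* (1.36) and *lipl-4* (1.32), and *lbp-8* (1.16), whose product carries a lysosomal lipid signal to the nucleus. *lipl-2* (F46B6.8) had 4.64, 3.28 and 5.99 CPM in starved *daf-2* RNAi libraries, against 0.248, 0.0827 and 0.279 CPM in control EV libraries. The groups did not overlap (2.2 ± 0.21; limma, adjusted p = 5.56e-05). Without starved *daf-2* RNAi C or control EV B 3 of the 5 were called, and 0 of the 16 that averaged 5 CPM or more. Fatty acid activation and oxidation genes moved both ways, 8 higher and 5 lower of 58, against the same shares. *hacd-1*, a hydroxyacyl-CoA dehydrogenase, had 133, 156 and 214 CPM, against 62.7, 87.1 and 78.9 CPM in control EV libraries (1.11 ± 0.25, adjusted p = 0.0188). *acox-1.2*, an acyl-CoA oxidase gene, had 11.2, 8.34 and 7.21 CPM, against 27.4, 21.0 and 20.1 CPM (-1.27 ± 0.24, adjusted p = 0.00635). The 8 higher calls became 5 without starved *daf-2* RNAi A or control EV A, 4 without control EV B and 3 without starved *daf-2* RNAi C or control EV C. The 5 lower calls became 3 without starved *daf-2* RNAi A or control EV B and 9 with array weights.

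Defence genes changed in both directions. Of 125 tested immune effector genes (C-type lectins, lysozymes, saposin-like and related peptides) 21 rose and 10 fell, with a median of 0.09, against 3.17% higher and 2.6% lower of all tested genes. *spp-2* (T08A9.12, X, 7315995 to 7316818), a saposin-like antimicrobial peptide gene, had 106, 133 and 170 CPM in starved *daf-2* RNAi libraries, against 8.42, 8.93 and 8.28 CPM in control EV libraries. It rose by 3.82 ± 0.23 (limma, adjusted p = 2.22e-06). Its mean was 9.88 CPM in starved EV and 118.7 CPM in control *daf-2* RNAi animals, and in the opposite diagonal it fell by 3.46 (adjusted p = 2.74e-06). *lys-7* (C02A12.4), a lysozyme gene, had 223, 301 and 795 CPM, against 36.4, 42.2 and 47 CPM in control EV libraries (3.15 ± 0.48, adjusted p = 0.00166). Library C was again the highest, and the lowest starved *daf-2* RNAi library still stood above every control EV library.

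The largest fall of the group was in *clec-10* (C03H5.1, II, 402678 to 404180), a C-type lectin gene, with 3.46, 4.15 and 2.82 CPM in starved *daf-2* RNAi libraries, against 21.4, 20.2 and 20.5 CPM in control EV libraries. It fell by 2.29 (SE 0.21; limma, adjusted p = 4.58e-05). Means of 17.6 CPM in starved EV and 5.84 CPM in control *daf-2* RNAi animals put its level with the RNAi label. *fipr-21*, for a small secreted peptide related to fungus-induced genes, fell by 1.68 (SE 0.26; adjusted p = 0.00181). Leaving out a library lowered the 21 rises to 10 (starved *daf-2* RNAi C) or 11 (control EV B or C) and the 10 falls to 6 (control EV B or C), and array weights raised the falls to 22. Of the 71 that averaged 5 CPM or more 7 rose and 6 fell.

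Of 141 tested genes of cytochrome P450s, UDP-glucuronosyltransferases (UGT) and glutathione transferases, enzymes that modify foreign and internal compounds, 15 rose and 10 fell, against 3.17% and 2.6% of all tested genes. Array weights called 25 lower and DESeq2 17, and of the 82 that averaged 5 CPM or more 6 rose. *cyp-13A5* (T10B9.2, II, 9798277 to 9800362) had 21.8, 21.0 and 25.7 CPM in starved *daf-2* RNAi libraries, against 2.03, 0.951 and 0.977 CPM in control EV libraries. It rose by 3.39 ± 0.24 (limma, adjusted p = 5.84e-06), while its single-change groups were level with each other at 4.88 CPM (starved EV) and 4.94 CPM (control *daf-2* RNAi). *cyp-35B1* (2.36), *cyp-13A11* (2.34) and *gst-29* (2.24) also rose, each under every alternative that tested it. The 10 that fell included 7 UGT genes. *ugt-53* (T03D3.1, V, 2849343 to 2852028) had 2.42, 3.19 and 2.73 CPM, against 15.0, 14 and 18.8 CPM in control EV libraries, a fall of 2.16 (SE 0.17; adjusted p = 9.52e-06). Its highest mean was in starved EV animals, 33.4 CPM, against 3.01 CPM in control *daf-2* RNAi animals.

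*cest-1.1* (T02B5.1, V, 14163255 to 14166730), for a protein with a carboxylesterase domain, had the largest difference among the named genes. It had 19.8, 17.5 and 26.0 CPM in starved *daf-2* RNAi libraries, against 0.198, 0.207 and 0.186 CPM in control EV libraries, and rose by 4.19 ± 0.29 (limma, adjusted p = 4.61e-06). The groups lay about 2 orders of magnitude apart with little spread in either. *pgp-1* (K08E7.9), an intestinal ABC transporter gene of the P-glycoprotein family, had 54.8, 44.7 and 47.3 CPM, against 8.03, 4.14 and 4.70 CPM in control EV libraries (2.96 ± 0.34, adjusted p = 0.000233). *sdz-24* rose by 3.38 ± 0.18 (adjusted p = 2.16e-06; 19 bases shared with *sri-45*). *msra-1* (F43E2.5), a methionine sulfoxide reductase gene, had 113, 125 and 101 CPM, against 324, 365 and 416 CPM in control EV libraries, a fall of 1.70 (SE 0.25; adjusted p = 0.0013), with 41 bases shared with *insc-1*.

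Some genes of cuticle and moulting were higher in starved *daf-2* RNAi than in control EV animals, and higher still in starved EV animals. The cuticle is the collagen coat that larvae renew at each moult. *cut-2* (F53F1.5, V, 13414949 to 13416064), a cuticlin gene, had 28.8, 18.1 and 17.7 CPM in starved *daf-2* RNAi libraries, against 1.73, 0.124 and 0.651 CPM in control EV libraries. It rose by 3.68 ± 0.42 (limma, adjusted p = 0.000217), and averaged 74.7 CPM in starved EV and 1.09 CPM in control *daf-2* RNAi animals. *col-165* (F14H12.1), a collagen gene, had 11, 9.04 and 12.2 CPM, against 0.248, 0.0414 and 0.093 CPM in control EV libraries, and rose by 3.38 ± 0.21 (adjusted p = 2.43e-06). *col-165* averaged 31.2 CPM in starved EV and 0.39 CPM in control *daf-2* RNAi animals. Levels of both genes were thus high in both 8-day groups and near 1 CPM or below in both 1-day groups. *tts-2* (R05H5.8) had the same order, with 25.3, 12.7 and 20.8 CPM, against 2.08, 0.869 and 0.977 CPM in control EV libraries (3.14 ± 0.33, adjusted p = 0.000118), and 55.8 CPM in starved EV and 1.51 CPM in control *daf-2* RNAi animals.

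As groups these genes gave fewer calls here than in the opposite diagonal, as did all tested genes (3.17% higher here, 22.2% higher there). Of 25 cuticlin genes 3 rose and 1 fell in starved *daf-2* RNAi animals, with a median of 0.27, and 22 were higher in starved EV against control *daf-2* RNAi, with a median of 1.30. Of 35 moulting cycle genes 5 rose (*mlt-9*, *ptr-4*, *wrt-1*, *ptr-18*, *wrt-2*) and 1 fell, with a median of 0.29, against 27 higher and a median of 1.21 in the opposite diagonal. Without starved *daf-2* RNAi A or C, starved EV C or control *daf-2* RNAi C 3 of the 5 rose, and without control EV B or C 2 did, while array weights called 12 higher and DESeq2 9. Of 12 genes of the pharyngeal cuticle 4 rose (*abu-14*, *phat-5*, *abu-13*, *phat-2*), against 12 in the opposite diagonal. *abu-14* had 8.93, 4.85 and 5.04 CPM, against 0.396, 0.124 and 0.14 CPM in control EV libraries (2.54 ± 0.29; limma, adjusted p = 0.000233). Of the 6 annular furrow collagens, which pattern the rings of the cuticle, 0 were called, with a median of 0.65, against 4 and a median of 2.30 in the opposite diagonal. Array weights called 4 of the 6 higher here.

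**Figure D4:**
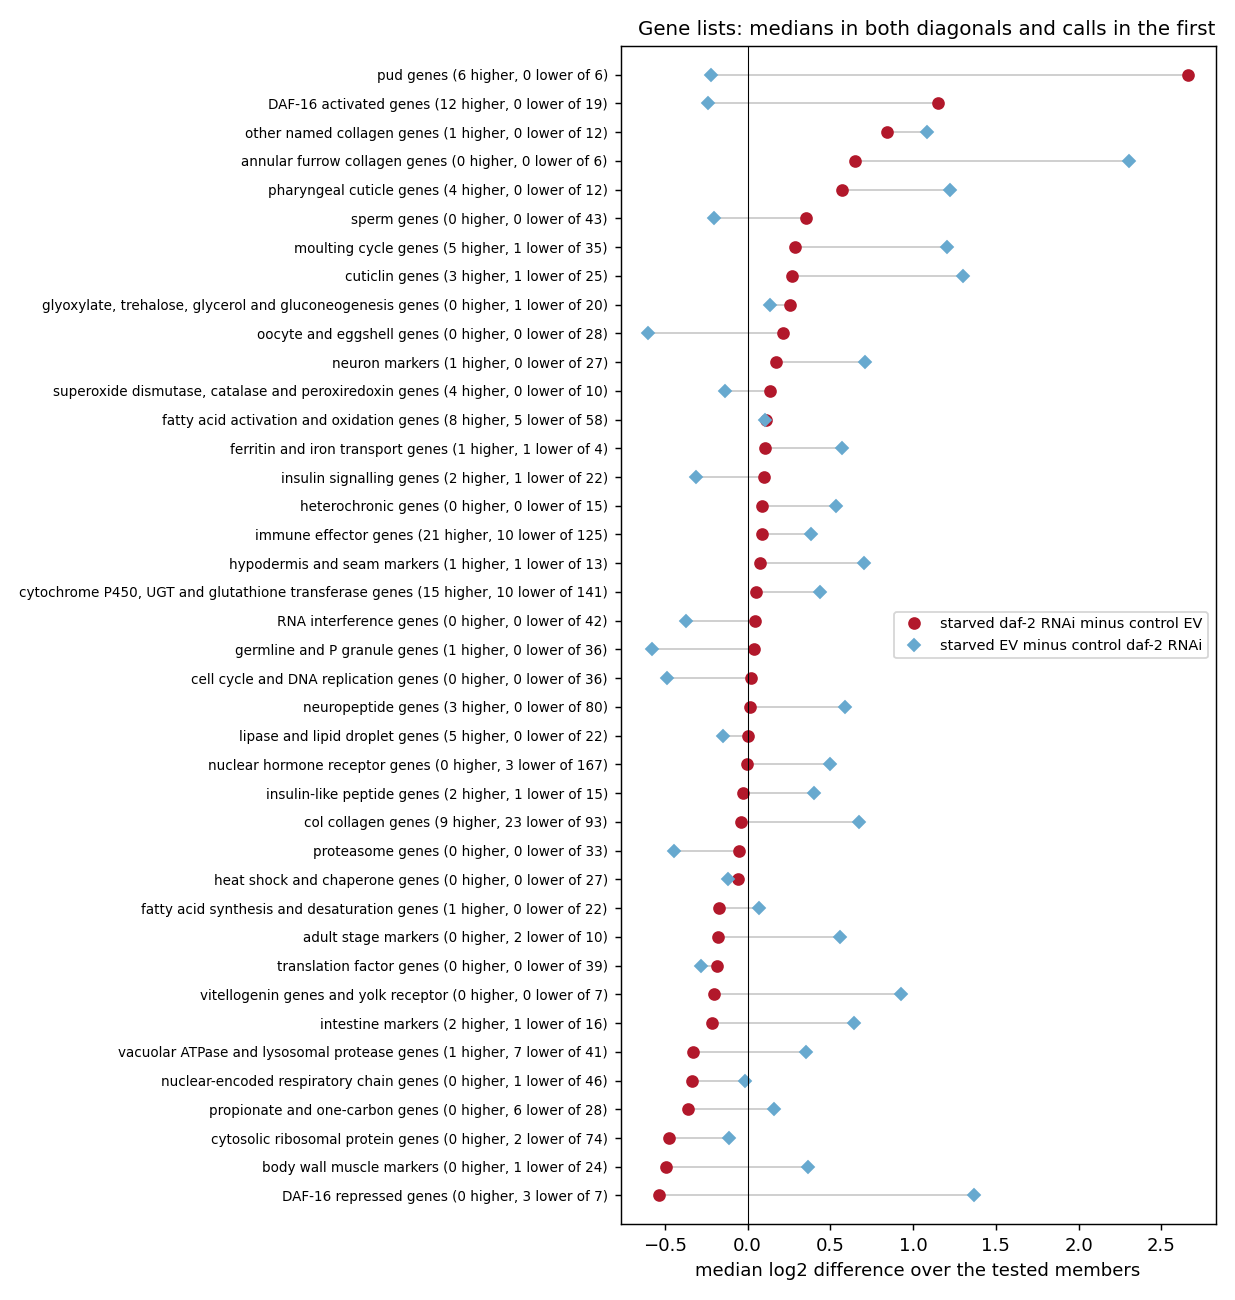
Median log2 difference of each gene list (x axis) in starved daf-2 RNAi minus control EV (red circles) and in starved EV minus control daf-2 RNAi (blue diamonds), with the calls of the first in brackets. The pud and DAF-16 activated lists stand highest in the first at 2.66 and 1.15, where most other lists lie within 0.5 of 0.

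Among the 93 tested collagen genes named *col* 9 rose and 23 fell, against 3.17% and 2.6% of all tested genes, and the abundant members were among those that fell. The 23 that fell summed to 10592 to 13950 CPM in starved *daf-2* RNAi libraries and 25319 to 31085 CPM in control EV libraries. The 9 that rose summed to 327 to 520 CPM and 132 to 191 CPM. Over all 93 the sum was 20406, 17470 and 15306 CPM in starved *daf-2* RNAi libraries, against 33581, 39027 and 33269 CPM in control EV libraries, without overlap. The median difference was -0.04, and 0.08 with edgeR and 0.09 with DESeq2. With array weights 22 rose and with DESeq2 19. Without control EV B 3 rose and 8 fell, without control EV C 4 and 13, 4 rose without starved *daf-2* RNAi A, 9 fell without starved *daf-2* RNAi C, and 17 rose without starved EV A.

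*col-19* (ZK1193.1, X, 421707 to 422691), a collagen gene switched on in the adult, had 742, 817 and 655 CPM in starved *daf-2* RNAi libraries, against 1574, 2304 and 2046 CPM in control EV libraries. It fell by 1.41 (SE 0.23; limma, adjusted p = 0.00268), with group means of 1268 CPM in starved EV and 1566 CPM in control *daf-2* RNAi animals. *col-119* (C53B4.5), also used here as a marker of the adult, had 1533, 1421 and 1223 CPM, against 2801, 3126 and 2812 CPM in control EV libraries (-1.07 ± 0.20, adjusted p = 0.00633). *col-124* (C24F3.6) had 1110, 1151 and 843 CPM, against 2754, 3828 and 3122 CPM (-1.64 ± 0.26, adjusted p = 0.00244; 71 bases shared with *qns-1*). For these 3 the lower group lay well below the higher one, and the calls held under every alternative run. *col-129* (-2.37 ± 0.50, adjusted p = 0.0141), *col-139* and *col-81* fell most, and were lower in starved EV than in control *daf-2* RNAi animals too. Their calls were lost without starved *daf-2* RNAi C or control EV B, where the adjusted p of *col-129* reached 0.0579 and 0.0766, and for *col-139* and *col-81* also without control EV C.

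**Figure D5:**
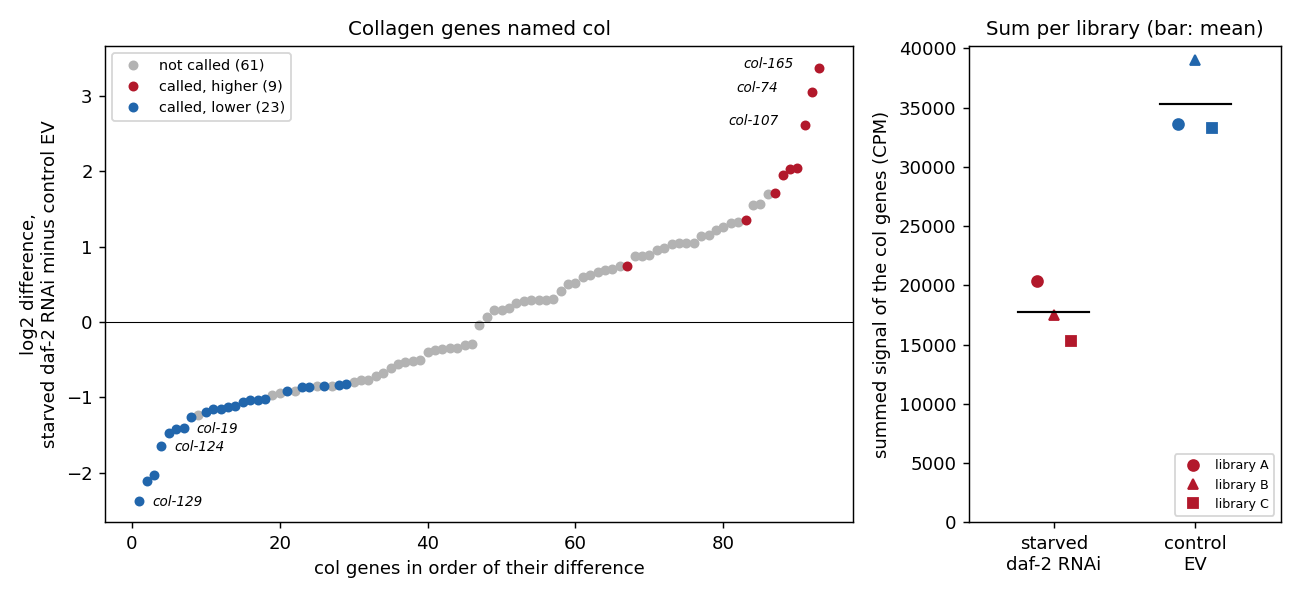
Left, log2 difference (y axis) of the 93 col genes in rank order, coloured by call. Right, summed CPM of all 93 in each library, starved daf-2 RNAi left of control EV, with bars at the means of 17727 and 35292 CPM; no starved daf-2 RNAi library reaches a control EV library.

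Few stage and tissue markers were called, though muscle and intestine markers lay mostly below 0. Over all tested genes 3.17% were called higher and 2.6% lower. Of 10 adult stage markers *col-19* and *col-119* fell and 0 rose, and the summed level of the list overlapped, at 25524 to 45272 CPM in starved *daf-2* RNAi and 23483 to 73132 CPM in control EV libraries, most of it from vitellogenins. Of 13 hypodermis and seam markers *wrt-2* rose and *col-19* fell. The list summed to 867 to 1002 CPM, against 1770 to 2487 CPM in control EV libraries. Most of each sum was *col-19*, at 655 to 817 CPM and 1574 to 2304 CPM. Of the 13 differences 8 lay above 0, with a median of 0.07. The call of *wrt-2* was lost without any one of 8 libraries. Of 16 intestine markers *pgp-1* and *ges-1* rose and *vha-6* fell. Of the 16 differences 12 lay below 0, with a median of -0.22, against 50.1% of all tested genes. In 6 of the 16 every starved *daf-2* RNAi library lay below every control EV library, and in 3 above. These shares were 11.1% and 10.2% over all tested genes. With the replicate letter as a block in the fit 6 intestine markers were called lower. *ges-1*, a gut esterase gene, had 76.5, 72.9 and 74.9 CPM, against 36.7, 30.5 and 33.3 CPM in control EV libraries (1.14 ± 0.14; limma, adjusted p = 0.00028). Of 24 body wall muscle markers *unc-27* fell and 0 rose, with a median of -0.49 and 21 differences below 0, against 50.1% of all tested genes. In 7 of the 24 every starved *daf-2* RNAi library lay below every control EV library, against 11.1% of all tested genes. The summed level was 4890 to 8974 CPM, against 7061 to 11568 CPM in control EV libraries. The call of *unc-27* was lost without starved *daf-2* RNAi B or C, any control EV library, or control *daf-2* RNAi B or C. Lower calls among these markers numbered 5 without starved *daf-2* RNAi A, 7 with array weights and 5 with DESeq2. The part of stage or tissue makeup in the collagen and other results was not tested.

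Heterochronic genes, which time larval stages, gave 0 calls among 15, with a median of 0.09, against 5.78% called of all tested genes. The 39 translation factor genes also gave 0, with a median of -0.18. Of these 39, 36 lay below 0, against 50.1% of all tested genes, and 26 did after quantile normalization. With the replicate letter as a block in the fit 8 of them were called lower. Of 20 genes of the glyoxylate cycle, trehalose, glycerol and gluconeogenesis *gpdh-1*, for glycerol phosphate dehydrogenase, fell and 0 rose. That call was lost without starved *daf-2* RNAi A or B or control EV B or C. Of the 20 differences 16 lay above 0, with a median of 0.25, against 49.9% of all tested genes. In 7 of the 20 every starved *daf-2* RNAi library lay above every control EV library, and in 2 below. These shares were 10.2% and 11.1% over all tested genes. In that list array weights called 4 higher, quantile normalization and DESeq2 3 each, and the replicate block 7.

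Genes of the methionine cycle, phosphatidylcholine synthesis and propionate breakdown fell or did not pass. Of 28 tested 0 rose and 6 fell (*sams-1*, *pmt-2*, *hphd-1*, *ech-6*, *hach-1*, *mtrr-1*), with a median of -0.36, against 3.17% higher and 2.6% lower of all tested genes. *sams-1* (C49F5.1), S-adenosylmethionine synthetase, had 275, 217 and 194 CPM in starved *daf-2* RNAi libraries, against 518, 552 and 431 CPM in control EV libraries. It fell by 1.13 (SE 0.20; limma, adjusted p = 0.00525). *pmt-2* (F54D11.1, V, 4628580 to 4635263), a methyltransferase that uses S-adenosylmethionine on the way to phosphatidylcholine, had 356, 321 and 282 CPM, against 693, 690 and 651 CPM in control EV libraries, and fell by 1.09 (SE 0.14; adjusted p = 0.000355). *hphd-1*, of the propionate shunt, had 399, 391 and 326 CPM, against 633, 644 and 618 CPM (-0.77 ± 0.13, adjusted p = 0.00326). Every starved *daf-2* RNAi library lay below every control EV library in these 3 genes, and their means in starved EV animals (506, 695 and 761.7 CPM) exceeded those in control *daf-2* RNAi animals (332, 439 and 401 CPM). Without starved *daf-2* RNAi A, control EV B or control EV C 3 of the 6 fell, and array weights called 12 lower and DESeq2 11.

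Of 41 genes of the vacuolar ATPase, the proton pump of lysosomes and the gut, and of lysosomal proteases 1 rose and 7 fell, against 3.17% and 2.6% of all tested genes. The 1 that rose, *cpr-4*, was not called without any one of the 6 libraries compared, or with only those 6. *cpr-5* (W07B8.5), a cathepsin B-like protease gene, had 138, 106 and 51.7 CPM in starved *daf-2* RNAi libraries, against 479, 323 and 243 CPM in control EV libraries (-1.87 ± 0.39; limma, adjusted p = 0.0121). Letter A was highest and C lowest in both groups. *cpr-8* fell by 1.26 (SE 0.19; adjusted p = 0.00163). *vha-6*, the pump subunit of the intestine, had 213, 215 and 196 CPM, against 373, 397 and 325 CPM in control EV libraries (-0.80 ± 0.15, adjusted p = 0.00723). The 7 falls became 4 without starved *daf-2* RNAi A or control EV C and 3 without control EV B, but 16 with array weights and 14 with DESeq2.

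Ribosomal protein genes all lay below 0, and how many passed the test depended on the processing. All 74 tested cytosolic ribosomal protein genes had a log2 difference below 0, from -0.63 to -0.03 with a median of -0.47, against 50.1% of all tested genes, and 2 were called lower (2.7%, against 2.6% of all). Array weights called 62 of the 74 lower and DESeq2 23. After quantile normalization 0 were called, 65 of the 74 lay below 0 and the median was -0.18. In 41 of them every starved *daf-2* RNAi library lay below every control EV library, against 11.1% of all tested genes. Their summed signal was 59521, 67583 and 69857 CPM in starved *daf-2* RNAi libraries, against 78402, 93165 and 99515 CPM in control EV libraries. Both called members, *rpl-36A* (-0.63, adjusted p = 0.0224) and *rpl-11.2* (-0.62, adjusted p = 0.0344, limma), lost the call after quantile normalization and without control EV B, among others. Of 46 nuclear-encoded respiratory chain genes 45 lay below 0, with a median of -0.33, and 1 (*atp-4*) was called lower, a call lost without any one of 10 of the libraries and with edgeR. Array weights called 23 of the 46 lower and DESeq2 8. Their summed signal was 10934 to 11016 CPM, against 13193 to 14283 CPM in control EV libraries.

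Reproductive and growth genes gave few or no calls here. Their counts in the opposite diagonal stand beside 22.2% higher and 14.6% lower of all tested genes there, against 3.17% and 2.6% here. Of 36 germline and P granule genes 1 rose (*fog-3*, 1.30) and 0 fell, with a median of 0.04, against 1 higher and 21 lower in the opposite diagonal (median -0.58). For 34 of the 36 the 95% interval lay within 1 log2 unit of 0. The helicase gene *glh-1* of the P granules had 509, 497 and 471 CPM in starved *daf-2* RNAi libraries, against 576, 651 and 620 CPM in control EV libraries, without overlap but also without a call (-0.32 ± 0.14; limma, adjusted p = 0.254). Of 28 oocyte and eggshell genes 0 were called, all 28 differences lay between 0.02 and 0.49, and 17 were lower in the opposite diagonal. Of 36 cell cycle and DNA replication genes 0 were called, with 35 intervals within 1 unit, against 19 lower in the opposite diagonal. Of 33 proteasome genes 0 were called, with all 33 intervals within 1 unit, against 15 lower.

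Regulatory and neuronal genes also gave few calls here, against the same shares of all tested genes (3.17% higher and 2.6% lower here, 22.2% and 14.6% in the opposite diagonal). Of 167 nuclear hormone receptor genes 0 rose and 3 fell (*nhr-156*, *nhr-114*, *nhr-137*), or 1 without starved *daf-2* RNAi C or control EV B, against 88 higher and 2 lower in the opposite diagonal. For 159 of the 167 the interval lay within 1 unit. Of 42 RNA interference genes 0 were called, against 2 higher and 17 lower. Of 27 neuron markers 1 rose (*rgs-1*, a call lost without starved *daf-2* RNAi A or C or control EV B or C, with 3 called without starved *daf-2* RNAi B), against 17, and of 80 neuropeptide genes 3 rose (*flp-34*, *nlp-34*, *nlp-51*), against 30. *flp-34* (R09A1.5) had 7.75, 7.18 and 10.7 CPM in starved *daf-2* RNAi libraries, against 1.93, 2.56 and 2.37 CPM in control EV libraries (1.52 ± 0.25; limma, adjusted p = 0.0028). Without any one of 8 of the libraries *flp-34* was the 1 neuropeptide gene that rose, and 1 other fell without starved *daf-2* RNAi C or starved EV B. Of the 6 vitellogenin genes, which encode yolk proteins, and the yolk receptor 0 were called. *vit-2* had 18721, 12338 and 10660 CPM, against 30603, 14372 and 8483 CPM in control EV libraries, with the A library highest and the C library lowest in both groups, and a difference of -0.20 ± 0.52 (adjusted p = 0.906).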

How the data were processed

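The authors deposited a single table of 12894 genes in 12 libraries. Its values are a signal, CPM relative to a scaled library size, as the deposited column sums of 889133 to 1097910 show. Bowtie 1.1.2, HTSeq 0.12.4 and edgeR are listed in the submitters' processing notes with no steps assigned, and the genome build is not given in the sources used here. Per the labels, the library kit was NEBNext Ultra, which keeps no strand. Dividing each column by its step gave whole reads for 100% of values within 0.01 read. These reads cover the listed genes alone.

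The 12830 genes that reached 1 CPM in 3 or more libraries were tested with limma 3.58.1 (R 4.3.3), with a trend, on log2(CPM + 1) over all 12 libraries in 4 groups, two-sided, with Benjamini-Hochberg adjustment and a threshold of 0.05. Called means past that threshold. The pseudocount shrinks differences of genes near or below 1 CPM. A fold change is on this scale. The design had assumed plain CPM, and the test was kept. edgeR 4.0.16, which called 806 genes (454 higher), and DESeq2 1.42.0 on the recovered reads were alternatives, as were other pseudocounts (0.25 and 4), filters, scalings, weights and leaving out each library. In simulated data of 12830 genes with 200 changed, the fit called 7.46%, 44.8% and 93.9% of genes changed 1.5, 2 and 4 times between starved *daf-2* RNAi and control EV, with 4 false among 101 calls. With 3 libraries a side, exact permutation of a single gene cannot pass the threshold.

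Names and coordinates are from the WBcel235 annotation, which matched 12731 genes. The 40 gene lists, the named genes and the comparison itself were chosen with earlier results of these data known. The text names genes from a rule: the 15 largest rises and falls called with a mean of at least 10 CPM, a class symbol and separate groups, 5 of each kind called in both diagonals, up to 4 per list, and a fixed set. Other called list members named here were chosen after their values were seen. Among the genes the rule names, exons of 23 overlap another protein-coding gene. Log2 values of replicates correlated at 0.972 to 0.994. Promoter motifs were not analysed.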

Additional observations from a re-analysis of the deposited data

How the results depend on the processing

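Of the 99 called genes named by the rule, 65 kept their call under all alternatives that tested them, and 0 of the named genes reversed. Without a library each in turn, calls in starved *daf-2* RNAi against control EV ran from 389 to 901 (239 to 648 higher, 150 to 421 lower). In starved EV against control *daf-2* RNAi they ran from 2999 to 4793 (1998 to 2859 higher, 910 to 1936 lower), and the interaction had 0 to 1. In that opposite diagonal the calls fell to 2999 without starved EV C and 3090 without control *daf-2* RNAi A, and the lower calls also without control *daf-2* RNAi B (956) or C (1209). Where 2 libraries of a group remain, the spread is taken from all groups. A mean of at least 5 CPM, which leaves 8835 genes, gave 420 calls (171 higher), and in the opposite diagonal 1468 higher, with the median of all genes there at -0.15. Array weights gave 1850 calls (799 higher, 1051 lower) and DESeq2 1296 (658 higher, 638 lower). Quantile normalization moved the higher calls of the opposite diagonal to 1626 and its median from 0.03 to -0.09. The interaction gave 1 call at a pseudocount of 4 and 4 with DESeq2. The cause of these moves was not tested.

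Same-lettered libraries of the groups compared deviated together for letters A (r = 0.671) and C (0.409) but not B (-0.141). On the second principal component (19.8% of the variance) A lay lowest, B between and C highest in all 4 groups. The low r of B therefore does not show that the letters are unpaired. The fit reported above did not take the letters as pairs. With the letter as a replicate block, calls numbered 2236 (973 higher, 1263 lower), with all 741 among them. Lower were 70 of 74 ribosomal protein, 30 of 46 respiratory chain, 23 of 41 vacuolar ATPase and lysosomal and 14 of 24 muscle genes. Over all 12830 tested genes 1263 were lower in that fit. *daf-2* had an adjusted p of 0.0117 (limma), the opposite diagonal had 7769 calls (3756 lower) and the interaction 63.

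Medians of the heat shock, hypodermis, neuropeptide, P450, nuclear hormone receptor, adult stage, vitellogenin and *col* lists changed sign with the scaling, all staying within 0.4 of 0. In the simulated data, fitted without a replicate block and with 200 genes changed, 7.46% of genes changed 1.5-fold were called. Differences under 2-fold were called in the deposited data. Of the 741 calls 254 rises and 126 falls reached 2-fold, and of the 4725 in the opposite diagonal 965 and 26 did. A gene without a call may still differ.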

Other observations

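Sperm genes were not called but differed between libraries of one group. Of 43 tested 0 were called, against 5.78% of all tested genes. The median was 0.35, and 39 of the 43 differences lay above 0, against 49.9% of all tested genes. The list summed to 339, 278 and 524 CPM in starved *daf-2* RNAi libraries A, B and C, against 256, 341 and 313 CPM in control EV libraries. Library B was the lowest of the 3 starved *daf-2* RNAi libraries. Without it 7 of the 43 were called higher, against 648 of all 12830 tested genes. The sperm Argonaute genes were also lowest in B among the starved *daf-2* RNAi libraries. *alg-4* had 11.8, 3.36 and 17.8 CPM, against 2.73, 4.47 and 2.70 CPM in control EV libraries (limma, adjusted p = 0.113), and *alg-3* had 8.48, 2.95 and 14.3 CPM, against 2.48, 4.05 and 1.77 CPM (adjusted p = 0.137).

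The largest log2 difference of any gene was in F56D6.9, which has no gene class symbol and was singled out after its value was seen. It averaged 47.8 ± 36.5 CPM in starved *daf-2* RNAi and 0.047 ± 0.050 CPM in control EV animals (SD, n = 3 libraries each; 5.29 ± 0.41, SE, limma, adjusted p = 9.52e-06). F41F3.3, chosen in the same way, averaged 26.1 ± 3.99 CPM and 0.88 ± 0.28 CPM (3.85 ± 0.27, adjusted p = 5.28e-06), and rose by 5.29 in the opposite diagonal.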
